A study of Mus musculus with 8 samples.

Results

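The genes of the voltage-gated sodium and calcium channels were followed through sorted cells of the neonatal mouse cochlea. The members were the protein-coding genes whose symbol in the NCBIM37 (mm9) annotation begins with Cacna, Cacnb or Cacng, or consists of Scn, a number and the letter a or b, with the exception of *Cacna1d*. This gave 38 genes, of which 13 belong to sodium channels and 25 to calcium channels, out of 36536 genes with a count in the files. The annotation calls another sodium channel gene *Scn2a1*, a symbol the rule does not match, so its values are given with the partner genes.

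All libraries came from mice of the strain B6;FVB-Tg(Lfng-EGFP)HM340Gsat/Mmucd, which carry a bacterial artificial chromosome with EGFP under the control of *Lfng*, a modulator of Notch signaling. Cochleas of mice at postnatal day 1 (P1) or 6 (P6) were dissociated and sorted directly, with no culture period, into GFP+ and GFP- cells. The 4 groups, P1 GFP+, P1 GFP-, P6 GFP+ and P6 GFP-, have 2 replicate libraries each. At both ages the transgene marks Deiters' cells, outer pillar cells, border cells and inner phalangeal cells, while inner pillar cells are unlabelled. Only the brightest cells were taken as GFP+, weakly fluorescent cells were not collected, and the GFP- cells are the unlabelled cells of the dissociated cochlea without those weak fractions. The dissection differed with age: the lateral wall with its stria vascularis, as well as Reissner's membrane, was taken off the sensory tissue at P1 but only in part at P6, so age and dissection cannot be told apart. The sources used here do not say how many animals gave a library or whether replicates came from separate litters, so the p-values measure only the spread between these libraries. Because the samples are bulk RNA, fewer cells of a type and less RNA per cell cannot be told apart.

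Voltage-gated channels open when the membrane depolarises. Sodium channel alpha subunits carry the fast upstroke of the action potential and are joined by single-pass beta subunits, while calcium channel alpha1 subunits admit calcium and work with alpha2delta and intracellular beta subunits that govern surface expression and gating. L-type channels (*Cacna1c*, *Cacna1f*, *Cacna1s*) sustain contraction, secretion and gene regulation, the *Cacna1a*, *Cacna1b* and *Cacna1e* channels serve transmitter release and related neuronal functions, and T-type channels (*Cacna1g*, *Cacna1h*, *Cacna1i*) open at low voltage. In the cochlea, spiral ganglion neurons fire sodium-dependent action potentials, immature hair cells fire calcium action potentials before the onset of hearing, and supporting cells are best known for calcium signaling through purinergic receptors and stores.

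The pore loops are shown because they separate the classes into which the members are grouped below. In the first repeat of the sodium channels, the codon in capitals encodes the residue known to set block by tetrodotoxin. Each stretch of 27 bases is coding DNA of the NCBIM37 annotation, given 5′ to 3′ on the strand of the gene.
Scn11a: actcaagacTCCtgggagaagctttat
Scn10a: acgcaggacTCCtgggaacggctgtac
Scn8a: actcaggacTACtgggagaacttatac
Scn9a: actcaggacTACtgggagaacctttat
Scn3a: actcaagacTACtgggagaacctttac
Scn4a: acgcaggacTACtgggagaaccttttc
The stretches lie in coding exons at chr9:119714783-119714809, minus strand (*Scn11a*), chr9:119575490-119575516, minus strand (*Scn10a*), chr15:100802060-100802086, plus strand (*Scn8a*), chr2:66387043-66387069, minus strand (*Scn9a*), chr2:65359855-65359881, minus strand (*Scn3a*) and chr11:106205212-106205238, minus strand (*Scn4a*). The codon is TCC in *Scn11a* and *Scn10a*, which are tetrodotoxin-resistant, and TAC in the other members shown.

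In the third repeat of the calcium channels, the codon in capitals encodes the residue of the selectivity filter. The T-type genes are shown with an L-type gene and a high-voltage neuronal gene for contrast.
Cacna1g: tccaagGATggctgggttgacatcatg
Cacna1h: tccaagGATggctgggtaaacatcatg
Cacna1i: tccaagGATggctgggtgaacatcatg
Cacna1c: accttcGAAgggtggccagagctgctg
Cacna1e: acagggGAAggatggcctcaggttctg
They were read from chr11:94287767-94287793, minus strand (*Cacna1g*), chr17:25520435-25520461, minus strand (*Cacna1h*), chr15:80207231-80207257, plus strand (*Cacna1i*), chr6:118604467-118606150, minus strand (*Cacna1c*) and chr1:156291126-156292021, minus strand (*Cacna1e*) of NCBIM37, where the last 2 stretches each join 2 coding exons. The codon is GAT in the 3 T-type genes and GAA in *Cacna1c* and *Cacna1e*.

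The libraries held 17769024 to 67695039 counts on genes, and 3 counts correspond to between 0.0443 and 0.169 CPM depending on the library, where CPM is the count of a gene per 1000000 counts on genes. The labels were checked against marker lists: all 7 supporting cell markers were past the test below as higher in GFP+ cells at both ages. Hair cell markers were also higher in GFP+ cells, with 6 of 10 past the test at P1 and 7 of 10 at P6, and no list had a marker at 0 in all GFP+ libraries. In P1 GFP- cells all 12 neuron markers were higher in replicate 2 than in replicate 1, by 2.32 to 4.02 times, and their sum without *Isl1*, which made up most of it in GFP+ libraries, was 236 CPM in replicate 1 and 785 CPM in replicate 2. In P6 GFP+ cells the summed endothelial and mural, melanocyte and Schwann cell and glia lists were each higher in replicate 2 than in replicate 1, as seen in the plot of marker lists.

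**Figure D1:**
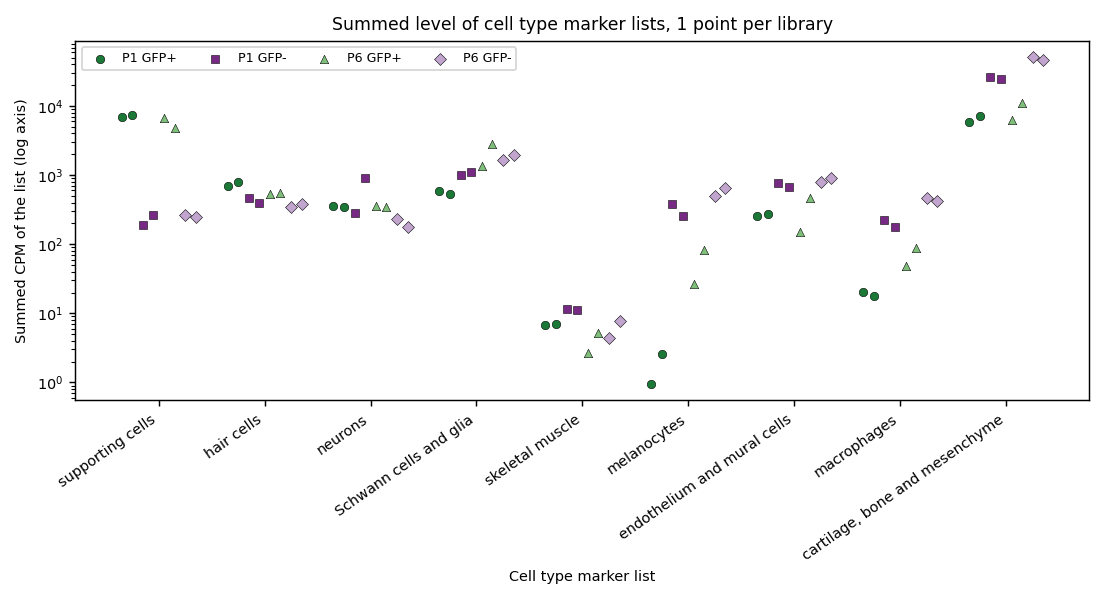
Summed CPM (y axis, log scale) of each cell type marker list (x axis), with 1 point per library and colour and shape for the group. Neuron markers stand at 893 CPM in P1 GFP- replicate 2 against 280 CPM in replicate 1, and endothelial and mural markers at 466 against 149 CPM in P6 GFP+ replicates 2 and 1.

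The members' share of all gene counts at P1 ranged from 0.0364% to 0.0376% among GFP+ libraries, against 0.117% to 0.119% among GFP- libraries. At P6 this share was 0.0202% to 0.0350% for GFP+ and 0.0828% to 0.0951% for GFP- libraries, so the fractions did not overlap at either age. P6 GFP+ replicate 2 lay above replicate 1. Between 35 and 38 members had at least 1 count in a library. Per kilobase of annotated exon, *Cacnb3*, a cytoplasmic beta subunit, had the highest mean in all 4 groups, with 23.1 ± 1.12, 38.9 ± 8.32, 21.95 ± 1.63 and 30.8 ± 1.87 CPM per kb (SD, n = 2) in P1 GFP+, P1 GFP-, P6 GFP+ and P6 GFP- cells. In P1 GFP+ cells it was followed by *Cacng7* (13.7 ± 0.230), *Cacng4* (5.26 ± 0.0469), *Cacnb1* (4.68 ± 0.0756) and *Cacna2d2* (3.27 ± 0.108) CPM per kb, and neighbours in this order did not overlap between replicates. The pore-forming subunits with the highest levels per kb in P1 GFP+ cells, *Scn8a* (2.51 ± 0.0146) and *Cacna1e* (2.29 ± 0.491), did overlap. In P1 GFP- cells *Cacng7* (37.03 ± 2.20), *Cacna1g* (25.04 ± 3.99) and *Cacna1e* (13.1 ± 4.54) came after *Cacnb3*, and *Cacnb3* and *Cacng7* overlapped. In P6 GFP- cells the order was *Cacnb3*, *Cacng7* (23.8 ± 3.02), *Cacng4* (21.7 ± 0.853) and *Cacna1g* (19.2 ± 3.31 CPM per kb), and the last 3 overlapped with their neighbours.

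**Figure D2:**
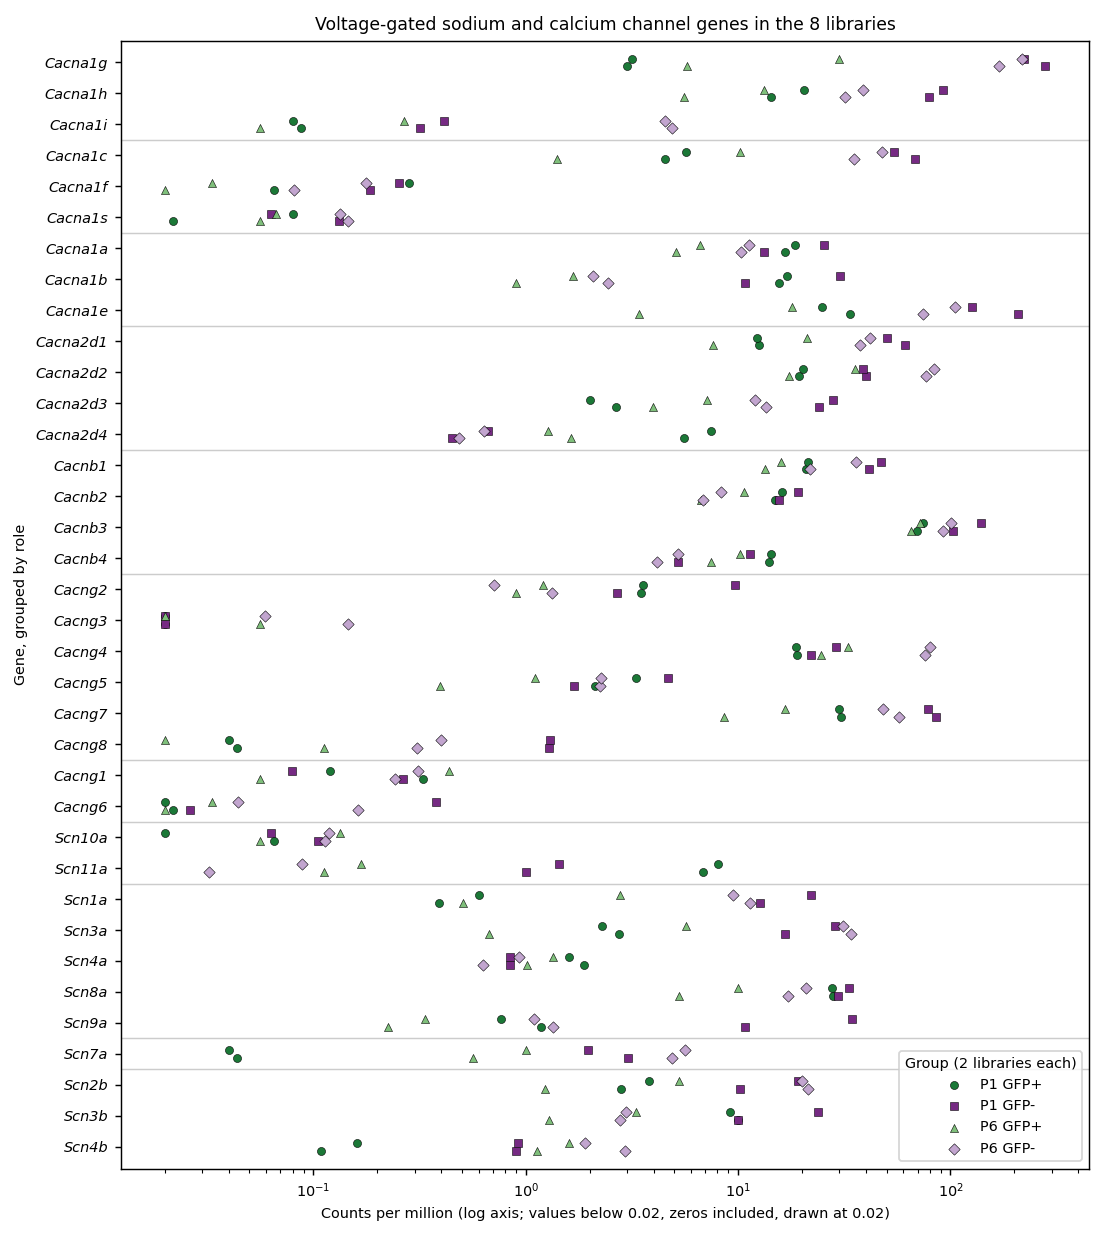
CPM (x axis, log scale, values under 0.02 drawn there) of 36 members (rows, grouped by role), with 1 point per library and colour and shape for the group. For *Cacna1g* the P1 GFP+ libraries sit at 3.01 and 3.17 and the P1 GFP- libraries at 279.7 and 223, while for *Scn11a* the P1 GFP+ libraries are the highest.

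**Figure D3:**
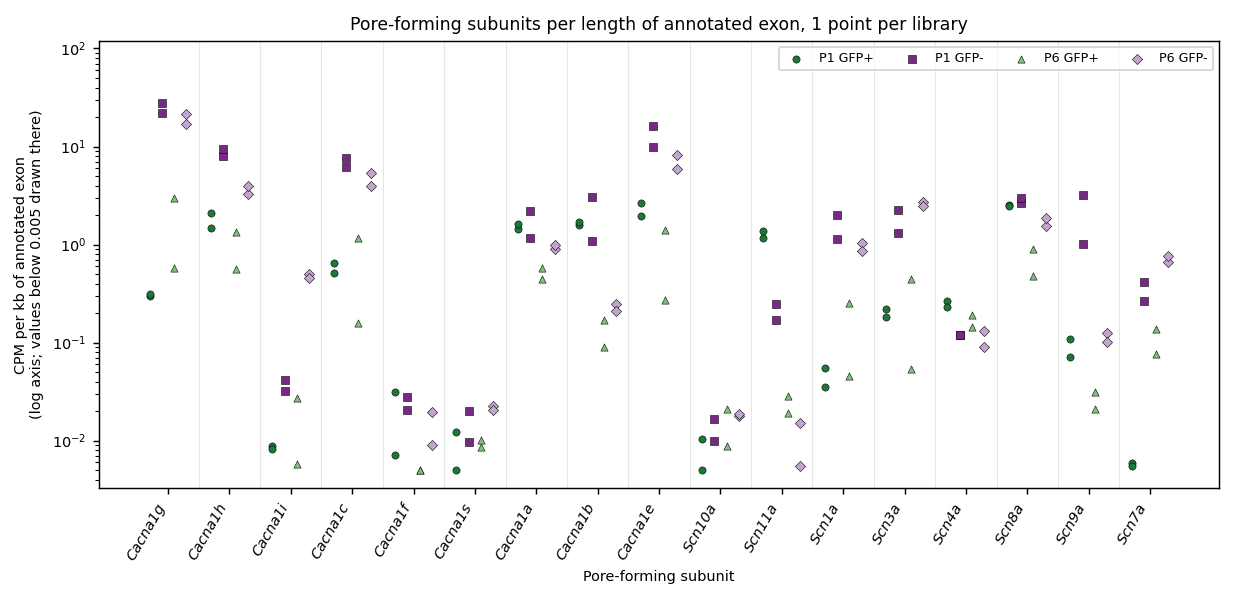
Level per length of 17 pore-forming subunits, as CPM per kilobase of annotated exon (y axis, log scale, values under 0.005 drawn there), with 1 point per library. The T-type gene *Cacna1g* is the highest of them in GFP- cells of both ages, and *Scn8a* and *Cacna1e* are the highest in P1 GFP+ cells.

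At P1 most of the members that differed were lower in GFP+ than in GFP- cells. The T-type gene *Cacna1g*, the L-type gene *Cacna1c*, the *Cacna1e* gene of R-type current, the neuronal sodium channel genes *Scn1a*, *Scn3a* and *Scn9a*, and 3 of the 4 alpha2delta genes were among the lower ones. The exceptions were *Cacna2d4*, an alpha2delta gene known from photoreceptors, and *Scn11a*, a tetrodotoxin-resistant sodium channel gene known from nociceptors, which were enriched in GFP+ cells. Of the 38 members, 34 passed the filter on low counts, 2 were past the test (edgeR's quasi-likelihood test, Benjamini-Hochberg adjusted p below 0.01) as higher in GFP+ cells and 16 as lower. Over all 18682 genes tested, 16.6% were past the test as higher and 20.7% as lower, against 5.88% and 47.1% of the members tested. With the 4-fold criterion of the study added, 2 members were higher and 13 lower, where all genes gave 6.46% and 11.4%, and 8 members were lower by it without P1 GFP+ replicate 1. The median log2 fold change was -0.85 over the members tested and 0.01 over all genes tested. The lower count depended on single libraries, with 25 members without P1 GFP- replicate 1 and 10 without P1 GFP+ replicate 1, and the higher count was 5 without P1 GFP- replicate 2.

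At P6 no member was past the test as higher in GFP+ cells, and the lower ones were the T-type gene *Cacna1i*, the sodium-sensing channel gene *Scn7a* and the gamma genes *Cacng7* and *Cacng4*. Of the 32 members that passed the filter, these 4 were lower, or 12.5%, where 7.72% of all 18294 genes tested were past the test as higher and 5.19% as lower. At an unadjusted p below 0.05, 2 members were higher and 21 lower, and DESeq2 called 0 higher and 13 lower. The share of all genes was not taken at these settings, so these counts have no background. The median log2 fold change was -1.38 over the members tested and -0.02 over all genes tested. In fits that left a library out, a lone library was assumed to vary like the other group. The number of lower members changed with every library left out. It was 20 without P6 GFP+ replicate 2, 16 without P6 GFP+ replicate 1, and 0 without either P6 GFP- library, and without P6 GFP+ replicate 1 there were 2 members higher in GFP+ cells. Besides the 4 calls, *Cacna1e*, *Cacna1g*, *Cacna1h* and *Cacna2d2* were past the threshold as lower under 6 of 10 alternatives, and *Cacna1c*, *Cacna2d3*, *Scn1a*, *Scn2b* and *Scn8a* under 5 of 10. With the 4-fold criterion 0 members were higher and 3 lower, against 4.88% and 3.1% of all genes, and single libraries moved the lower count between 0 (without either P6 GFP- library) and 14 (without P6 GFP+ replicate 2). Across the 29 members with enough counts for a ratio, P6 GFP+ replicate 2 was above replicate 1 in 27, with a median ratio of 1.86 and 12 members at more than 2 times, while the median ratio was 1.05 between the P1 GFP+ libraries. These ratios were not taken over all genes, so the counts have no background and may not be particular to the members. P6 GFP+ replicate 2 also held more of the endothelial and mural markers (466 against 149 CPM), the melanocyte markers (83.5 against 26.3 CPM), the Schwann cell and glia markers (2771 against 1365 CPM) and the cartilage, bone and mesenchyme markers (10924 against 6358 CPM). Its summed supporting cell markers were lower (4763 against 6628 CPM). *Lfng* alone gave 2365 and 3755 CPM of these 2 sums, while *Prox1* was higher (133 against 81.4 CPM). The part of these cells in the result was not tested.

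**Figure D4:**
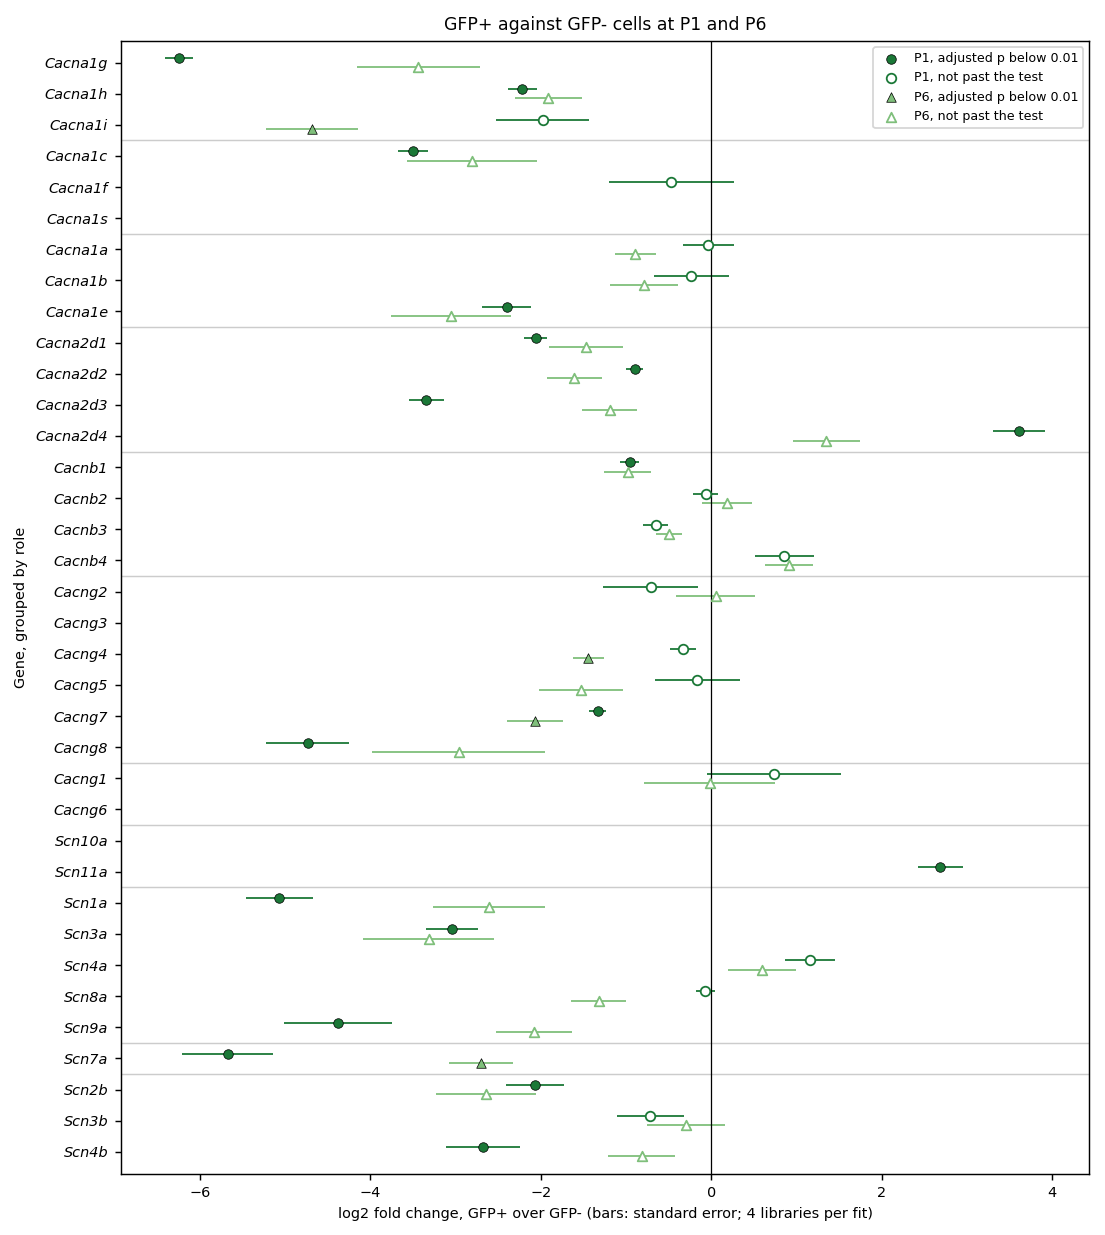
Log2 fold change of GFP+ over GFP- cells (x axis, bars show the standard error, 4 libraries per fit) for 36 members at P1 (circles) and P6 (triangles), filled where the adjusted p was below 0.01. Most points lie left of 0, with *Cacna2d4* at 3.61 and *Scn11a* at 2.69 on the right at P1.

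Between P1 and P6, the members that changed in GFP+ cells were *Scn11a* and *Cacna1b*, the pore of N-type presynaptic current, and both fell. Of 30 members that passed the filter, these 2 (6.67%) were past the test as lower and 0 as higher, where 1.95% of all 17213 genes tested were lower and 2.86% higher. At an unadjusted p below 0.05, 6 members were higher and 13 lower, and DESeq2 called 3 higher and 7 lower, with no share of all genes taken at these settings. The median log2 fold change was -0.46 over the members tested and -0.002 over all genes tested. Both calls were over 4-fold, and this criterion was met by 1.63% of all genes as higher and 0.93% as lower. Leaving out P6 GFP+ replicate 2 gave 4 higher and 19 lower members, leaving out P6 GFP+ replicate 1 gave 11 higher and 9 lower, and leaving out P1 GFP+ replicate 2 left 1 lower.

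In GFP- cells the T-type gene *Cacna1i*, the AMPA receptor auxiliary gene *Cacng4* and the alpha2delta gene *Cacna2d2* rose from P1 to P6, while *Scn11a*, *Scn9a*, *Cacna1b*, the sodium channel beta gene *Scn3b* and the T-type gene *Cacna1h* fell. The less complete dissection at P6 goes with this comparison. Melanocyte markers, which the stria vascularis holds, summed to 376 and 253 CPM at P1 and 506 and 653 CPM at P6. *Dct* alone gave 321 and 210 CPM of the P1 sums and 440 and 572 CPM of the P6 sums. Of the 5 melanocyte markers, 1 was past the test as higher at P6 and 1 as lower. Cartilage, bone and mesenchyme markers were past it as higher in 4 of 10 cases and as lower in 1. The part of these cells was not tested. The calls were 3 higher (8.57%) and 5 lower (14.3%) of the 35 members that passed the filter, where 5.04% of all 18920 genes tested were higher and 2.34% lower. With the 4-fold criterion 1 was higher and 4 were lower, against 1.43% and 0.418% of all genes, and the lower count was 0 without either P6 GFP- library. The number of lower members was 0 without either P6 GFP- library, 13 without P1 GFP- replicate 1 and 8 without P1 GFP- replicate 2, and that of higher members was 7 without P1 GFP- replicate 2 and 5 without P1 GFP- replicate 1. Of the members that fell, *Scn9a*, *Cacna1b* and *Scn3b* were more than 2 times higher in P1 GFP- replicate 2 than in replicate 1, as were *Cacng2*, *Cacng5* and *Cacnb4*. The neuron markers moved with them between these libraries (236 and 785 CPM), were lower at P6 (172 and 121 CPM) and fell with age in 2 of 12 cases by the same test, and their part in these results was not tested.

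**Figure D5:**
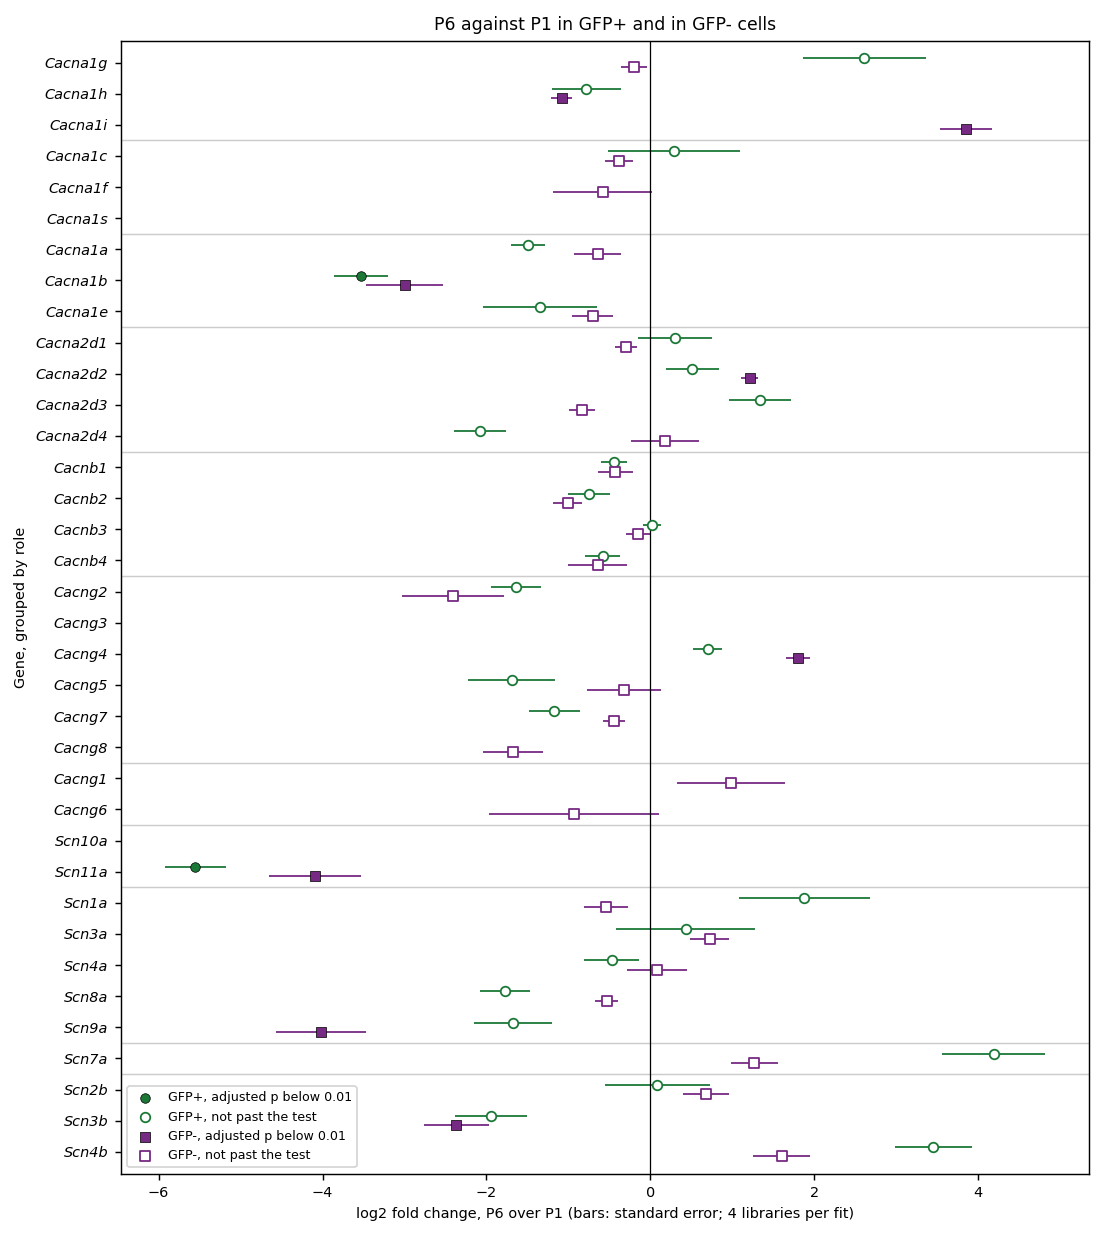
Log2 fold change of P6 over P1 (x axis, bars show the standard error, 4 libraries per fit) for 36 members in GFP+ (circles) and GFP- cells (squares), filled where the adjusted p was below 0.01. *Scn11a* and *Cacna1b* lie far left in both fractions, and *Cacna1i* at 3.85 lies far right in GFP- cells.

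Whether the ratio of GFP+ to GFP- cells differed between the ages was asked with an interaction term fitted to the 8 libraries. None of the 34 members that passed the filter was past the test, where 0.946% of all 19233 genes tested were past it as higher at P6 and 0.988% as lower, or 0.66% and 0.598% with the 4-fold criterion. At an unadjusted p below 0.05 there were 6 members with a higher and 4 with a lower ratio at P6, and DESeq2 called 2 and 2. The share of all genes was not taken at these settings either. The lowest adjusted p was that of *Cacna2d3* (0.0193), followed by *Cacna2d4* (0.0319), *Cacng4* (0.0356) and *Scn7a* (0.0495). A member past the test at P1 and not at P6 is therefore not shown to differ between the ages. Without P6 GFP+ replicate 1 there were 4 members with a higher ratio, and without P6 GFP+ replicate 2 there were 4 with a lower ratio.

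Among the T-type genes, which give low-voltage calcium current, *Cacna1g* lies at chr11:94269705-94335414 and had the highest mean level per kb of the pore-forming genes in GFP- cells of both ages. It measured 3.01 and 3.17 CPM in P1 GFP+ and 279.7 and 223 CPM in P1 GFP- cells, and 5.74 and 29.9 CPM in P6 GFP+ and 169 and 216 CPM in P6 GFP- cells. All GFP+ libraries were below all GFP- libraries, and P6 GFP+ replicate 2 was the highest GFP+ library. The log2 fold change of GFP+ over GFP- cells at P1 was -6.24 (SE 0.17, adjusted p = 9.99e-06), the lowest of all members. At P6 it was -3.43 (SE 0.72, adjusted p = 0.0179), and with age in GFP+ cells 2.61 (SE 0.75, adjusted p = 0.0663), neither past the test. The lower level at P1 held in all 10 alternatives, while the P6 difference was past the threshold under 6 of 10 and the change with age in GFP+ cells under 4 of 10, DESeq2 among them in both. Without P6 GFP+ replicate 2 the change with age was 1.02 and without P6 GFP+ replicate 1 it was 3.34, and the P6 difference was -5.05 and -2.66.

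*Cacna1h* (chr17:25511230-25570728) measured 14.3 and 20.3 CPM in P1 GFP+ and 79.1 and 91.99 CPM in P1 GFP- cells, and 5.57 and 13.2 and 32.02 and 38.9 CPM in the GFP+ and GFP- cells of P6. The P1 GFP- libraries were the highest, and the fractions did not overlap at either age. GFP+ cells were lower at P1, at a log2 difference of -2.21 (SE 0.17, adjusted p = 0.000165). From P1 to P6 it fell in GFP- cells, at a log2 difference of -1.08 (SE 0.13, adjusted p = 0.00265), a call that was lost without either P6 GFP- library and where all 8 libraries were fitted together. At P6 the log2 fold change of GFP+ over GFP- cells was -1.91 (SE 0.39, adjusted p = 0.0170).

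*Cacna1i* (chr15:80117668-80228709) is known from thalamic neurons and was at or below 0.412 CPM in all but the P6 GFP- libraries. It measured 0.0873 and 0.0803 CPM in P1 GFP+, 0.317 and 0.412 CPM in P1 GFP-, 0.0563 and 0.268 CPM in P6 GFP+ and 4.88 and 4.52 CPM in P6 GFP- cells. The P6 GFP- libraries did not overlap with any other library. With age it rose in GFP- cells, at a log2 difference of 3.85 (SE 0.31, adjusted p = 0.000768), past the test in all 11 alternatives. GFP+ cells were lower at P6, at a log2 difference of -4.68 (SE 0.54, adjusted p = 0.00355) from 1 and 8 counts in the GFP+ libraries, and this call was lost without either P6 GFP- library. At P1 the difference was not past the test, at -1.98 (SE 0.54, adjusted p = 0.0239).

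Of the L-type genes other than *Cacna1d*, *Cacna1c* (chr6:118542314-119146249), the pore of cardiac and smooth muscle calcium current, carried nearly all counts. It measured 4.52 and 5.66 CPM in P1 GFP+ and 67.9 and 54.5 CPM in P1 GFP- cells, 1.41 and 10.2 CPM in P6 GFP+ and 35.2 and 47.6 CPM in P6 GFP- cells. The fractions did not overlap at either age, and P6 GFP+ replicate 2 was the higher of its pair. At P1 the log2 fold change of GFP+ over GFP- cells was -3.50 (SE 0.17, adjusted p = 3.45e-05), and it was past the test in all 10 alternatives. At P6 it was -2.81 (SE 0.77, adjusted p = 0.0382). Beside it, endothelial and mural markers, whose mural cells use this channel, were lower in GFP+ cells in 8 of 10 cases at P1 and 1 of 10 at P6. Their sums were 252 and 277 CPM in P1 GFP+ and 762.1 and 666 CPM in P1 GFP- cells. *Pdgfrb* alone gave 212 and 238 CPM of the P1 GFP+ sums and 483 and 392 CPM of the P1 GFP- sums. The median log2 fold change of the list at P1 was -1.95. The part of these cells in the result was not tested. *Cacna1s*, the skeletal muscle channel, and *Cacna1f*, the photoreceptor channel, stayed at or below 0.146 and 0.281 CPM in every library. The skeletal muscle marker list summed to 2.70 to 11.4 CPM.

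Of the presynaptic and R-type genes, *Cacna1e* and *Cacna1b* were past a test and *Cacna1a* was not. *Cacna1e* (chr1:156239649-156573049) measured 33.5 and 24.7 CPM in P1 GFP+ and 207 and 126 CPM in P1 GFP- cells, and 3.43 and 18.01 CPM in P6 GFP+ and 74.5 and 105 CPM in P6 GFP- cells. GFP+ libraries were below GFP- libraries at each age without overlap. The log2 fold change at P1 was -2.40 (SE 0.28, adjusted p = 0.000887), a call lost where all 8 libraries were fitted together. At P6 it was -3.05 (SE 0.70, adjusted p = 0.0232).

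*Cacna1b* (chr2:24459407-24618672) measured 15.6 and 17.03 CPM in P1 GFP+ and 10.8 and 30.3 CPM in P1 GFP- cells, so the fractions overlapped at P1, with the lowest and the highest value both in GFP- cells. At P6 it measured 0.900 and 1.67 CPM in GFP+ and 2.43 and 2.07 CPM in GFP- cells, below every P1 library. It fell with age in GFP+ cells, at a log2 difference of -3.53 (SE 0.33, adjusted p = 0.00445), and in GFP- cells, with -2.999 (SE 0.47, adjusted p = 0.00665). The first call was lost without P1 GFP+ replicate 2 and the second without either P6 GFP- library. Between the fractions at P1 the log2 fold change was -0.24 (SE 0.44, adjusted p = 0.680), and it was 0.68 without P1 GFP- replicate 2 and -0.82 without P1 GFP- replicate 1.

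*Cacna1a* (chr8:86912339-87164145), the P/Q-type pore, was not past any test. It measured 16.6 and 18.6 CPM in P1 GFP+, 13.2 and 25.3 CPM in P1 GFP-, 5.12 and 6.60 CPM in P6 GFP+ and 10.4 and 11.3 CPM in P6 GFP- cells. Every P6 library was below every P1 library, and the log2 fold change with age was -1.49 (SE 0.21, adjusted p = 0.0117) in GFP+ cells and -0.64 (SE 0.29, adjusted p = 0.165) in GFP- cells. The value in GFP+ cells was past the threshold under 5 of 10 alternatives, with DESeq2 and with all 8 libraries among them.

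The alpha2delta genes encode extracellular subunits that raise the number of channels at the surface and bind gabapentin in some members. All 4 passed the filter, and at P1 3 were lower and 1 higher in GFP+ cells. *Cacna2d4* (chr6:119186544-119302425) measured 5.59 and 7.47 CPM in P1 GFP+ and 0.449 and 0.666 CPM in P1 GFP- cells, and 1.63 and 1.27 CPM in P6 GFP+ and 0.486 and 0.635 CPM in P6 GFP- cells. GFP+ libraries were above GFP- libraries at both ages, without overlap. The log2 fold change of GFP+ over GFP- cells was 3.61 (SE 0.31, adjusted p = 0.000243) at P1, past the test in all 10 alternatives, and 1.35 (SE 0.39, adjusted p = 0.0459) at P6. With age in GFP+ cells it was -2.08 (SE 0.32, adjusted p = 0.0141), not past the test, though it was past it under 5 of 10 alternatives, DESeq2 among them. Hair cell markers summed to 695 and 797 CPM in P1 GFP+ and 461 and 399 CPM in P1 GFP- cells. *Myo6* alone gave 442 and 475.5 CPM and 406 and 348 CPM of these sums. At P1, 6 of the 10 markers were past the test as higher in GFP+ cells, with a median log2 fold change of 2.34. The part of hair cells in this result was not tested.

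*Cacna2d3* (chr14:29718133-30535050), an alpha2delta gene that auditory neurons use, measured 2.66 and 2.01 CPM in P1 GFP+ and 24.1 and 27.9 CPM in P1 GFP- cells, 3.996 and 7.16 CPM in P6 GFP+ and 13.6 and 11.97 CPM in P6 GFP- cells. The P6 libraries of the fractions lay between those of P1, and no groups overlapped. GFP+ cells were lower at P1, at a log2 difference of -3.35 (SE 0.21, adjusted p = 7.09e-05) that held in all 10 alternatives, and at P6 the value was -1.19 (SE 0.32, adjusted p = 0.0366). With age in GFP- cells it was -0.83 (SE 0.16, adjusted p = 0.0129), which was past the threshold under 6 of 11 alternatives.

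*Cacna2d1* (chr5:15440509-15880329), the most widely used alpha2delta subunit, measured 12.6 and 12.2 CPM in P1 GFP+, 61.2 and 50.5 CPM in P1 GFP-, 7.65 and 21.1 CPM in P6 GFP+ and 37.6 and 41.9 CPM in P6 GFP- cells. The fractions did not overlap at either age, and both P1 GFP+ values fell inside the range of the P6 GFP+ pair. Its log2 fold change was -2.06 (SE 0.14, adjusted p = 8.99e-05) at P1, in all 10 alternatives past the test, and -1.47 (SE 0.44, adjusted p = 0.0496) at P6.

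*Cacna2d2* (chr9:107301943-107431677), a subunit whose loss gives the ducky mouse, measured 19.3 and 20.2 CPM in P1 GFP+ and 40.2 and 38.8 CPM in P1 GFP- cells, 17.4 and 35.6 CPM in P6 GFP+ and 76.7 and 83.8 CPM in P6 GFP- cells. The P6 GFP- libraries were the highest, and the fractions did not overlap. GFP+ cells were lower at P1, at a log2 difference of -0.90 (SE 0.10, adjusted p = 0.000710), a call lost without either P1 GFP+ library and where all 8 libraries were fitted together. In GFP- cells it rose with age, at a log2 difference of 1.21 (SE 0.11, adjusted p = 0.000885), lost only where all 8 libraries were fitted together. At P6 the log2 fold change of GFP+ over GFP- cells was -1.60 (SE 0.33, adjusted p = 0.0164).

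The beta genes encode the cytoplasmic subunits that bind the alpha1 subunit and carry it to the membrane. Their summed levels were 119 and 126 CPM in P1 GFP+ and 165 and 218 CPM in P1 GFP- cells, and 92.5 and 109 CPM in P6 GFP+ and 125 and 149.8 CPM in P6 GFP- cells. Only *Cacnb1* (chr11:97862822-97884348) was past a test. It measured 20.97 and 21.5 CPM in P1 GFP+, 41.2 and 47.3 CPM in P1 GFP-, 13.5 and 15.9 CPM in P6 GFP+ and 21.9 and 35.9 CPM in P6 GFP- cells. The fractions did not overlap at P1 or at P6. Its fold change on the log2 scale was -0.96 (SE 0.11, adjusted p = 0.000802) at P1, lost without either P1 GFP+ library, and -0.98 (SE 0.27, adjusted p = 0.0393) at P6. *Cacnb3*, the most abundant beta gene, measured 69.5 and 74.4 CPM in P1 GFP+ and 103 and 139.8 CPM in P1 GFP- cells, at a log2 difference of -0.65 (SE 0.15, adjusted p = 0.0124) that missed the threshold and was past it under 7 of 10 alternatives. *Cacnb4* measured 13.9 and 14.2 CPM in P1 GFP+ and 5.23 and 11.4 CPM in P1 GFP- cells. It had the only fitted value above 0 among the beta genes at P1, 0.86 (SE 0.35, adjusted p = 0.0840), and 16.03% of its exon bases overlap a gene on the other strand, whose reads cannot be told apart where the counting did not use strand. *Cacnb2* values ran from 6.70 to 19.1 CPM over the libraries, and its P1 fractions overlapped. With age in GFP- cells its log2 fold change was -1.01 (SE 0.18, adjusted p = 0.0113), and it was past the threshold under 6 of 11 alternatives, DESeq2 among them.

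The gamma genes fall into muscle-type subunits (*Cacng1*, *Cacng6*) and auxiliary subunits of AMPA-type glutamate receptors, called TARPs. *Cacng4* (chr11:107593671-107655871), a TARP gene active in the developing brain and in glia, measured 18.9 and 18.7 CPM in P1 GFP+ and 22.04 and 28.8 CPM in P1 GFP- cells, and 24.5 and 32.9 CPM in P6 GFP+ and 75.5 and 79.8 CPM in P6 GFP- cells. The P6 GFP- libraries stood above all others. It rose with age in GFP- cells, at a log2 difference of 1.80 (SE 0.15, adjusted p = 0.000779) that was past the test in all 11 alternatives. GFP+ cells were lower at P6, with -1.44 (SE 0.18, adjusted p = 0.00466), a call lost without either P6 GFP- library, and at P1 the value was -0.33 (SE 0.16, adjusted p = 0.124).

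*Cacng7* (chr7:3333055-3367810) measured 30.6 and 29.8 CPM in P1 GFP+ and 85.3 and 78.5 CPM in P1 GFP- cells, and 8.55 and 16.6 CPM in P6 GFP+ and 57.3 and 47.9 CPM in P6 GFP- cells. It was lower in GFP+ than in GFP- libraries at both ages, without overlap. Both differences were past the test. On the log2 scale the fold change was -1.33 (SE 0.10, adjusted p = 0.000123) at P1 and -2.07 (SE 0.32, adjusted p = 0.00798) at P6, and the P6 call was lost with library totals and without either P6 GFP- library.

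*Cacng8* (chr7:3394567-3415366), a hippocampal TARP gene, measured 0.0436 and 0.0402 CPM in P1 GFP+, 1.29 and 1.30 CPM in P1 GFP-, 0.113 and 0 CPM in P6 GFP+ and 0.308 and 0.399 CPM in P6 GFP- cells. The P1 GFP+ value rests on 3 counts in all. The pooled CPM of P1 GFP- cells was 30.6 times that of P1 GFP+ cells (95% exact interval from 10.2 to 150.2, counting error only), and the fitted log2 fold change was -4.74 (SE 0.48, adjusted p = 0.000502), lost without P1 GFP+ replicate 1. *Cacng2*, the stargazin gene, and *Cacng5* were past no test, with values from 0.709 to 9.65 CPM and from 0.394 to 4.66 CPM. The TARP gene *Cacng3* and the muscle-type genes stayed at or below 0.435 CPM in every library, and *Cacng3* had 0 counts in all P1 libraries.

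*Scn11a* (chr9:119662881-119734574), with the TCC codon in the loop printed above, encodes a channel of persistent, tetrodotoxin-resistant current. It measured 6.83 and 8.07 CPM in P1 GFP+ and 1.00 and 1.44 CPM in P1 GFP- cells, from 313 and 201 counts and 38 and 91 counts. At P6 it measured 0.113 and 0.167 CPM in GFP+ and 0.0324 and 0.0886 CPM in GFP- cells, from 2 and 5 counts and 2 and 6 counts. The P1 GFP+ libraries were above all others, and every P6 library was below every P1 library. GFP+ cells were enriched at P1, at a log2 difference of 2.69 (SE 0.26, adjusted p = 0.000413) that was past the test in all 10 alternatives. It fell with age in GFP+ cells, at a log2 difference of -5.55 (SE 0.37, adjusted p = 0.00273) past the test in all 10 alternatives, and in GFP- cells, with -4.09 (SE 0.56, adjusted p = 0.00424), lost without either P6 GFP- library. It did not pass the filter in the comparison of the fractions at P6. Of the hair cell markers, 6 of 10 were higher in GFP+ cells at P1, with a median log2 fold change of 2.34. They summed to 695 and 797 CPM in P1 GFP+ and 461 and 399 CPM in P1 GFP- cells. At P6 the sums were 525 and 558 CPM in GFP+ and 344 and 385 CPM in GFP- cells. *Myo6* alone gave 442 and 475.5, 406 and 348, 250 and 325, and 312 and 340 CPM of these sums, in the same order. With age, 2 of the 10 rose and 2 fell in GFP+ cells. One of them, the hair cell transcription factor gene *Atoh1*, was named after its values were seen. *Atoh1* measured 7.62 and 9.48 CPM in P1 GFP+ and 0.343 and 0.396 CPM in P1 GFP- cells. At P6 it measured 0.844 and 1.04 CPM in GFP+ and 0.0162 and 0 CPM in GFP- cells. Other markers of the list went the other way in GFP+ cells. *Ocm* measured 0.567 and 0.362 CPM at P1 and 86.2 and 34.4 CPM at P6. *Slc26a5* measured 0.698 and 1.21 CPM at P1 and 15.1 and 19.8 CPM at P6. The fitted log2 fold change with age in GFP+ cells was above 0 for 4 of the 10 markers and below 0 for 6. The part of hair cells in the *Scn11a* values was not tested. *Scn10a*, a nociceptor gene with the same codon as *Scn11a*, was at most 0.134 CPM in any library.

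Among the tetrodotoxin-sensitive genes, *Scn1a*, *Scn3a* and *Scn9a* were lower in GFP+ cells at P1. *Scn1a* (chr2:66108838-66278897), a channel gene of central and peripheral neurons, measured 0.393 and 0.603 CPM in P1 GFP+, 12.6 and 21.9 CPM in P1 GFP-, 0.506 and 2.78 CPM in P6 GFP+ and 11.4 and 9.48 CPM in P6 GFP- cells. GFP- libraries were above GFP+ libraries at both ages. Its log2 fold change at P1 was -5.07 (SE 0.39, adjusted p = 0.000162), in all 10 alternatives past the test, and at P6 -2.61 (SE 0.65, adjusted p = 0.0301).

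*Scn3a* (chr2:65295175-65405684), a channel gene of embryonic and neonatal neurons, measured 2.75 and 2.29 CPM in P1 GFP+ and 16.6 and 28.5 CPM in P1 GFP- cells, 0.675 and 5.66 CPM in P6 GFP+ and 34.02 and 31.3 CPM in P6 GFP- cells. The fractions did not overlap, and P6 GFP+ replicate 2 was 8.38 times replicate 1. The log2 fold change at P1 was -3.04 (SE 0.31, adjusted p = 0.000480), in all 10 alternatives past the test, and at P6 -3.31 (SE 0.77, adjusted p = 0.0238).

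*Scn9a* (chr2:66318137-66473009), the sensory neuron channel gene tied to pain, measured 1.18 and 0.763 CPM in P1 GFP+ and 10.8 and 34.3 CPM in P1 GFP- cells, 0.225 and 0.335 CPM in P6 GFP+ and 1.35 and 1.09 CPM in P6 GFP- cells. The P1 GFP- libraries were the highest and differed by 3.17 times, near the median ratio of the neuron markers (3.29), whose part was not tested. GFP+ cells were lower at P1, at a log2 difference of -4.38 (SE 0.63, adjusted p = 0.00204) that was lost without either P1 GFP+ library. In GFP- cells it fell with age, with -4.02 (SE 0.55, adjusted p = 0.00411), lost without either P6 GFP- library. At P6 the fractions gave -2.08 (SE 0.45, adjusted p = 0.0193).

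*Scn8a*, the main channel gene of mature nodes of Ranvier, was past no test. It measured 27.9 and 27.7 CPM in P1 GFP+, 29.4 and 33.3 CPM in P1 GFP-, 5.29 and 9.94 CPM in P6 GFP+ and 17.2 and 20.8 CPM in P6 GFP- cells. Every P6 library was below every P1 library. With age the log2 fold change was -1.77 (SE 0.30, adjusted p = 0.0192) in GFP+ and -0.53 (SE 0.14, adjusted p = 0.0423) in GFP- cells, and between the fractions it was -0.07 (SE 0.11, adjusted p = 0.626) at P1 and -1.32 (SE 0.32, adjusted p = 0.0283) at P6. The change with age in GFP+ cells was past the threshold under 6 of 10 alternatives and the P6 difference under 5 of 10, DESeq2 among them in both. *Scn4a*, the skeletal muscle channel gene, ranged from 0.632 to 1.88 CPM and was past no test, with a log2 fold change at P1 of 1.16 (SE 0.30, adjusted p = 0.0186).

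*Scn7a* (chr2:66511482-66622971) encodes a channel-like protein that senses extracellular sodium and is known from glia, among them Schwann cells. It measured 0.0436 and 0.0402 CPM in P1 GFP+, 3.03 and 1.96 CPM in P1 GFP-, 0.563 and 1.00 CPM in P6 GFP+ and 4.90 and 5.60 CPM in P6 GFP- cells. GFP- libraries were higher at both ages, without overlap. The P1 GFP+ value rests on 3 counts in all against 239 in P1 GFP- cells, a ratio of 55.8 between the pooled CPM (95% exact interval from 18.9 to 272). The fitted log2 fold change was -5.67 (SE 0.54, adjusted p = 0.000365) at P1 and -2.71 (SE 0.38, adjusted p = 0.00584) at P6, the latter lost without either P6 GFP- library. With age it was 4.19 (SE 0.63, adjusted p = 0.0137) in GFP+ cells and 1.27 (SE 0.29, adjusted p = 0.0248) in GFP- cells, neither past the test. Schwann cell and glia markers summed to 595 and 541 CPM in P1 GFP+ and 1012 and 1124 CPM in P1 GFP- cells. At P6 they summed to 1365 and 2771 CPM in GFP+ and 1644 and 1937 CPM in GFP- cells. *Sox10* (275 and 286 CPM) and *Erbb3* (162 and 173 CPM) made up most of the P1 GFP+ sums. In P1 GFP- cells these measured 95.9 and 148 CPM and 173 and 228 CPM. At P1, 7 of the 10 markers were past the test as lower in GFP+ cells and 1 as higher, with a median log2 fold change of -2.35. At P6, 0 were lower and 1 higher, with a median of -0.11. The part of these cells in the *Scn7a* result was not tested.

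The sodium channel beta genes encode cell adhesion proteins that tune gating of the alpha subunit. *Scn2b* (chr9:44925959-44938153) measured 2.81 and 3.82 CPM in P1 GFP+, 10.2 and 19.2 CPM in P1 GFP-, 1.24 and 5.26 CPM in P6 GFP+ and 21.4 and 20.05 CPM in P6 GFP- cells. The fractions did not overlap at either age. Between the fractions the fold change was -2.06 (SE 0.34, adjusted p = 0.00351) on the log2 scale at P1, lost without either P1 GFP+ library and where all 8 libraries were fitted together, and -2.64 (SE 0.58, adjusted p = 0.0208) at P6.

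*Scn3b* (chr9:40076801-40099203) measured 9.97 and 9.20 CPM in P1 GFP+ and 9.95 and 23.8 CPM in P1 GFP- cells, 1.29 and 3.31 CPM in P6 GFP+ and 2.77 and 2.97 CPM in P6 GFP- cells. P1 GFP- replicate 2 was the highest library, and the fractions overlapped at both ages. It fell with age in GFP- cells, at a log2 difference of -2.37 (SE 0.39, adjusted p = 0.00852) that was lost with library totals, with all 8 libraries in the fit and without either P6 GFP- library, and in GFP+ cells the value was -1.94 (SE 0.44, adjusted p = 0.0381). *Scn4b* lay beside *Scn2b* on chromosome 9 and was at 0.109 to 2.93 CPM in all libraries. It was lower in GFP+ cells at P1 with a log2 fold change of -2.68 (SE 0.44, adjusted p = 0.00329), lost without either P1 GFP+ library. With age in GFP+ cells its log2 fold change was 3.46 (SE 0.47, adjusted p = 0.0110), and it was past the threshold under 5 of 10 alternatives.

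Several members are neighbours at less than 1 megabase. On chromosome 6 *Cacna1c* and *Cacna2d4* lie within chr6:118542314-119302425, and at P1 GFP+ cells were lower for *Cacna1c* (-3.50 on the log2 scale) and higher for *Cacna2d4* (3.61). On chromosome 2 *Scn3a*, *Scn1a*, *Scn9a* and *Scn7a* lie within chr2:65295175-66622971, and all 4 were lower in GFP+ cells at P1. The gamma genes *Cacng7*, *Cacng8* and *Cacng6* share chr7:3333055-3435658 and *Cacng1*, *Cacng4* and *Cacng5* share chr11:107564532-107776369. Of the members past a test, *Cacna1h*, *Cacna2d2*, *Cacnb1* and *Scn9a* share between 1.36% and 1.77% of their exon bases with a gene on the other strand.

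The partner lists hold proteins that bind or cluster with the channels. Of 14 genes of sodium channel regulation and the axon node, 2 were higher and 7 lower in GFP+ cells at P1, and 2 were higher and 1 lower at P6. The median log2 fold change of this list was -1.09 at P1 and -1.17 at P6. Of 16 genes of calcium channel regulation and the release site, 2 were higher and 5 lower at P1 and 3 higher and 3 lower at P6, with medians of -0.67 and -0.87. The backgrounds are those given above for the members.

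Higher in GFP+ cells were *Cabp2*, a calcium-binding protein of hair cell channels, at a log2 difference of 5.10 (SE 0.31, adjusted p = 6.65e-05) at P1 and 4.12 (SE 0.61, adjusted p = 0.00688) at P6, and *Nrcam*, an adhesion molecule of the axon node, with 4.72 (SE 0.19, adjusted p = 2.01e-05) and 3.45 (SE 0.18, adjusted p = 0.000673). *Cabp2* measured 4.80 and 5.50 CPM in P1 GFP+ and 0.158 and 0.158 CPM in P1 GFP- cells, while *Nrcam* measured 1223 and 1229.5 CPM and 42.1 and 58.1 CPM. Both were above the GFP- libraries in every GFP+ library. Of the partners past the test with a mean of at least 1 CPM in the higher group, the lowest at P1 were *Rims1*, a scaffold of the release site, with -4.65 (SE 0.27, adjusted p = 6.00e-05), and *Stac2*, an adaptor protein of calcium channels, with -4.28 (SE 0.58, adjusted p = 0.00153). Under the same limits they were, at P6, the small G proteins *Rrad* and *Gem*, which inhibit calcium channels, with -2.73 (SE 0.35, adjusted p = 0.00483) and -2.65 (SE 0.41, adjusted p = 0.00795). The sodium channel gene *Scn2a1*, outside the rule for members, measured 2.18 and 2.37 CPM in P1 GFP+, 17.7 and 24.3 CPM in P1 GFP-, 0.675 and 1.87 CPM in P6 GFP+ and 7.96 and 9.44 CPM in P6 GFP- cells, at a log2 difference of -3.10 (SE 0.22, adjusted p = 0.000111) at P1 and -2.72 (SE 0.47, adjusted p = 0.0102), not past the test, at P6.

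With age, 2 of the 14 sodium channel partners fell in GFP+ cells and 1 rose in GFP- cells, and of the calcium channel partners 1 rose and 1 fell in each fraction. The backgrounds are again those given for the members. *Ryr1*, the calcium release channel of muscle stores, measured 2.95 and 4.46 CPM in P1 GFP+, 7.42 and 5.31 CPM in P1 GFP-, 19.2 and 18.6 CPM in P6 GFP+ and 1.78 and 1.99 CPM in P6 GFP- cells. It went from below the GFP- libraries at P1 to above them at P6, without overlap. It rose with age in GFP+ cells, by 2.46 (SE 0.26, adjusted p = 0.00606) on the log2 scale, and its value in GFP- cells, where it fell, was -1.56 (SE 0.27, adjusted p = 0.00965). Its interaction of age and fraction was 3.99 (SE 0.37, adjusted p = 0.00167), the only one past the test among the partners. *Nrcam* and *Rimbp2* had the largest falls in GFP+ cells, -1.98 (SE 0.15, adjusted p = 0.00328) and -1.79 (SE 0.23, adjusted p = 0.00949), and in GFP- cells *Rrad* and *Nfasc* rose, with 2.13 (SE 0.18, adjusted p = 0.000878) and 1.20 (SE 0.17, adjusted p = 0.00475).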

How the data were processed

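Libraries of freshly sorted P1 and P6 cells, 2 for each of the 4 groups, were compared by RNA-seq. The values deposited by the authors are raw counts per Ensembl gene, from paired-end reads aligned to mm9 (NCBIM37) with TopHat (1.4.0 in the submitters' processing notes) and counted with HTSeq, with no normalization. The counting mode and the use of strand were not given in the sources used here. Entries that name no gene held between 23.8% and 35.3% of a library's total and were left out. Reads ambiguous between genes were 2.05% to 2.53% of the total and those with more than 1 alignment 7.41% to 9.60%, so counts of overlapping or near-identical genes are uncertain.

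Pairs of groups were compared with the quasi-likelihood test of edgeR 4.0.16 (R 4.3.3) on their 4 libraries, after filterByExpr with a minimum count of 10 and a minimum total of 15. Factors came from TMM, and p-values were adjusted by Benjamini-Hochberg over all genes tested. A gene was past the test at an adjusted p below 0.01, and past the 4-fold criterion, taken from the study, when it also differed by more than 4-fold. The study further asked for a call by both DESeq and Cufflinks, and for a minimum expression in its filtered lists. Neither was applied here, so these counts are not those of the study. The interaction of age and fraction used all 8 libraries. Shares over all genes come from these main fits only, so counts at an unadjusted p or under other settings have no background. CPM is a count per 1000000 gene counts of its library, so ratios of CPM can differ from fitted fold changes, and levels between genes were compared per kilobase of annotated exon. Members past a test with a mean of at least 1 CPM in the higher group were given in every library. Of the partner genes, the 2 largest changes in each direction per comparison were named under the same minimum. Of 2 members no own values, and of 1 other no sequence, are reported here, but the counts over members hold them. The members and all gene lists were chosen with earlier results of these data known.

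The settings varied were the scaling (size factors of DESeq2 or library totals), the test (DESeq2 1.42.0), the low-count filter (none), the samples (all 8 libraries together, or each library left out) and a replicate block. A crossed replicate block was chosen after seeing the data. The procedure was also run on simulated counts with known changes. These were drawn with a single dispersion per comparison and without shifts between replicates, such as those in P6 GFP+ and P1 GFP- cells. The simulation therefore does not speak to such shifts. Sequences and positions were read with Python 3.11.15 and Biopython 1.88, and plots drawn with matplotlib 3.10.9.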

Additional observations from a re-analysis of the deposited data

Results flagged for a closer look

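For 2 members the fitted changes with age pointed in opposite directions in the fractions, with every P6 library on the far side of the P1 libraries in each fraction. No share of all genes was taken for this pattern, so the count of 2 has no background. *Cacna1g* measured 3.01 and 3.17 CPM at P1 and 5.74 and 29.9 CPM at P6 in GFP+ cells, and 279.7 and 223 CPM at P1 and 169 and 216 CPM at P6 in GFP- cells, with an interaction of age and fraction of 2.80 on the log2 scale (SE 0.80, adjusted p = 0.0837 with edgeR). Without P6 GFP+ replicate 2, its interaction was 1.18. *Cacna2d3* measured 2.66 and 2.01 CPM and 3.996 and 7.16 CPM in GFP+ cells of P1 and P6, and 24.1 and 27.9 CPM and 13.6 and 11.97 CPM in GFP- cells, with an interaction of 2.15 (SE 0.40, adjusted p = 0.0193 with edgeR). Neither was past an adjusted p of 0.01, and DESeq2 called both. In P6 GFP+ replicate 2 the melanocyte, endothelial and mural, and Schwann cell and glia lists were higher than in replicate 1, and their part in these values was not tested.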

How the results depend on the processing

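Of the 32 calls of members, none changed direction under any alternative, 14 were past the test in all alternatives run, and 18 were lost in at least 1, of which 11 were lost only where a library was left out. With no filter on low counts, the number of members was 4 higher at P1, 17 lower at P6, 6 higher and 10 lower with age in GFP+ cells, 8 higher and 11 lower with age in GFP- cells, and 5 higher and 3 lower for the interaction. With DESeq2 the number was 13 lower at P6, 3 higher and 7 lower with age in GFP+ cells, 5 higher and 9 lower with age in GFP- cells, and 2 higher and 2 lower for the interaction. With all 8 libraries in the fit it was 15 lower at P6, 2 higher and 5 lower with age in GFP+ cells, and 3 lower with age in GFP- cells. Over 4-fold, the members lower at P6 numbered 7 with DESeq2 and with the replicate block, 10 with no filter and 9 with all 8 libraries, those higher with age in GFP+ cells 2, 3 and 2 with DESeq2, no filter and all 8 libraries, and for the interaction 2 higher and 1 lower with DESeq2 and 5 higher and 1 lower with no filter. The causes were not tested, and the share of all genes was not taken under these settings. Other counts under these settings, DESeq2's size factors and library totals were within 1.5 times the main count.

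Leaving out 1 library at a time gave 2 to 5 members higher and 10 to 25 lower at P1, and 0 to 2 higher and 0 to 20 lower at P6. With age it gave 0 to 11 higher and 1 to 19 lower in GFP+ cells and 3 to 7 higher and 0 to 13 lower in GFP- cells, and for the interaction 0 to 4 in each direction. Over 4-fold the lower members numbered 8 to 13 at P1, 0 to 14 at P6, 1 to 6 with age in GFP+ cells and 0 to 5 with age in GFP- cells, and the higher ones 0 to 4 with age in GFP+ cells and 0 to 3 for the interaction. A lone library of a group was assumed to vary like the other group, and the share of all genes was not taken in these fits.

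The replicate numbers were checked as a pairing by the correlation of deviations from the group means over 19233 genes. It was 0.02 at P1, 0.09 at P6, -0.08 in GFP+ cells and -0.28 in GFP- cells. Same-numbered libraries thus did not clearly deviate together, and in GFP- cells they deviated in opposite directions. Such a correlation cannot tell whether libraries came from the same sort, because deviations particular to a fraction can hide a shared origin. The main fits used no pairing. A replicate block gave 9 members lower at P6 in place of 4 (7 in place of 3 over 4-fold) and otherwise counts within 1.5 times. The crossed pairing of GFP- cells, chosen after seeing the data, gave 6 higher and 11 lower.

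Among the members reported one by one, directions were reversed only for members past no test in that comparison. With the replicate block, the log2 fold change was 0.042 for *Cacna1a* at P1, and with age in GFP+ cells -0.23 for *Cacna1c*, -0.089 for *Scn3a* and -0.21 for *Scn2b*. Leaving out 1 library gave ranges through 0 at P1 for *Cacna1a* (-0.45 to 0.50), *Cacna1b* (-0.82 to 0.68), *Cacng2* (-1.37 to 0.48) and *Scn3b* (-1.23 to 0.045). With age in GFP+ cells they were *Cacna1c* (-1.71 to 1.08), *Cacna2d1* (-0.58 to 0.82), *Cacna2d2* (-0.053 to 0.91), *Scn2b* (-1.27 to 0.75) and *Scn3a* (-1.79 to 1.21), in GFP- cells *Cacnb4* (-1.10 to 0.016), and for the interaction *Cacna2d1* (-0.31 to 1.09).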
